A study of Mus musculus with 6 samples.

Results

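The EGF receptor family comprises a small set of receptor tyrosine kinases and the growth factors that bind them. The 10 genes described here were given as a list of symbols and matched by symbol in the deposited count table, and all 10 were found among the 55421 genes listed. They are the 4 receptors (*Egfr*, *Erbb2*, *Erbb3* and *Erbb4*), 5 ligands (*Egf*, *Hbegf*, *Tgfa*, *Btc* and *Nrg1*) and the inhibitor *Errfi1*. RNA was measured by stranded polyadenylated RNA sequencing of whole retinas from 2-month-old mice. The study asked which transcripts differ in retinas that lack YAP, a transcriptional coactivator of the Hippo pathway, at an early age. Retinas of 3 control mice of genotype *Yap*fl/fl (animals YR612, YR613 and YR615) were compared with those of 3 *Yap* cKO mice of genotype *Yap*fl/fl;RaxCreERT2 (YR711, YR713 and YR714), described in the methods as independent biological replicates. Mice of both groups received 4OH-T at P10 and P14 (postnatal days 10 and 14), so that the groups share the floxed alleles and the drug and differ in the Cre transgene. This Cre is driven from *Rax* regulatory sequences, which in the postnatal eye are active in Müller glia and in the non-pigmented epithelium of the ciliary body. Other retinal cells keep an undeleted *Yap* gene, but the paper describes Müller glia as the only cells of the retina that express YAP. RNA of a whole retina does not show which cells a transcript came from. In such bulk RNA, fewer cells of a type and less RNA per cell cannot be told apart.

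EGF family ligands are made as membrane-anchored precursors, and ADAM proteases release them from the cell surface. A ligand joins receptors into pairs whose kinase domains phosphorylate each other's tails, and adaptors bound there start the RAS and ERK cascade and the PI3K and AKT cascade. EGF and TGFA bind EGFR, HBEGF and betacellulin (*Btc*) bind both EGFR and ERBB4, and neuregulin 1 (*Nrg1*) binds ERBB3 and ERBB4. ERBB2 has no known ligand and acts as a partner of the other receptors, and ERBB3 has a weak kinase. ERRFI1, also called MIG6, binds the kinase domain of active EGFR and shuts it off, and its gene is itself switched on by receptor signalling. In the retina, EGF and HBEGF are known as mitogens of Müller glia, the radial glia that span the tissue.

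Promoter sequences are shown for 4 of the genes, namely the 3 whose levels did not overlap between the groups (*Erbb2*, *Btc* and *Tgfa*) and *Errfi1*, the most abundant. YAP reaches DNA through TEAD transcription factors, so the windows were searched on both strands for the TEAD core letters GGAATG, which read on the other strand as CATTCC. The letters of AP-1, a factor that often binds beside TEAD, were searched as TGANTCA, and no match of one motif overlapped one of the other in these windows. RefSeq windows of build GRCm38.p6, from 250 bases before to 50 after a gene's start, matched 7 of the 10 genes and comprised 9 windows. The TEAD core was found in 2 of the 9 windows, 88 bases before the start of *Erbb2* and 65 bases before the first start of *Errfi1*, and in 14.7% of the 32851 windows of all genes. This first *Errfi1* window ends before the gene's start in the annotation used for counting (150853919), and its end was not found in a transcript. The second *Errfi1* window (chr4:150854820-150855119), whose end was found in a transcript, held 0 TEAD cores. AP-1 letters were found in 0 of the 9 and in 7.81% of all windows. These matches are descriptions of letters. The windows lie at chr11:98412234-98412533 (*Erbb2*, + strand), chr5:91402945-91403244 (*Btc*, - strand), chr6:86194972-86195271 (*Tgfa*, + strand) and chr4:150853546-150853845 (*Errfi1*, first of 2 windows, + strand). They are written 5′ to 3′ in lower case, with a TEAD core in capitals:
Erbb2: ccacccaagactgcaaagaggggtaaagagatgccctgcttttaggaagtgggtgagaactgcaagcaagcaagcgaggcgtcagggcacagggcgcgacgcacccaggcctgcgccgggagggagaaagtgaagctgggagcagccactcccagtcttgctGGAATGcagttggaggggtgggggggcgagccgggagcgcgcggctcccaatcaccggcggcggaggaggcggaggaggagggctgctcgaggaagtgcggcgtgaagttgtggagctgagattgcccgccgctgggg
Btc: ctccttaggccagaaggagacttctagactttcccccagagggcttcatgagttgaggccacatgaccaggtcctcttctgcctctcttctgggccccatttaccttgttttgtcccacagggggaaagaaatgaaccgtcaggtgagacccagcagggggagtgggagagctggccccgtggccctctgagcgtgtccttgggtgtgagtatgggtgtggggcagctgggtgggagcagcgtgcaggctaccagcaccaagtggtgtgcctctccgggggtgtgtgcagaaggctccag
Tgfa: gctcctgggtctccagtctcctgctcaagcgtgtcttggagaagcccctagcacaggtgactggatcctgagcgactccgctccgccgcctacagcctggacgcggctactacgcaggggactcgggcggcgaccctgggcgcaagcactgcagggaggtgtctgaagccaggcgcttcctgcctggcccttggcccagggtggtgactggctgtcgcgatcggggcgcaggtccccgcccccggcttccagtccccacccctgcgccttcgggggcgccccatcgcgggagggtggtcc
Errfi1: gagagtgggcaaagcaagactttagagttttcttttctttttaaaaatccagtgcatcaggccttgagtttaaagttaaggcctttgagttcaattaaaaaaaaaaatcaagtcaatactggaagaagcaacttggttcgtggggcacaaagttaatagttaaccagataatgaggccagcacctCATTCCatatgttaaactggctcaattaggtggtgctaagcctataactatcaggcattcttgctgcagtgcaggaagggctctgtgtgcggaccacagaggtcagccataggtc

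Between 24261799 and 35067068 fragments per retina were assigned to genes. Of all genes, 16575 passed edgeR's filter on low counts and were tested with edgeR's quasi-likelihood test, with p-values adjusted by the Benjamini-Hochberg method over those 16575. All 10 family genes passed the filter. Levels are given as TPM, which divides each gene's count by its exonic length and scales every retina to the same total, a scale on which genes can be compared with each other. The deleted gene itself served as a check of the labels. *Yap1* stood at 9.48, 9.52 and 9.83 TPM in control and at 3.99, 3.76 and 3.94 TPM after deletion. This was a log2 fold change of -1.36 ± 0.0928 (SE), with an adjusted p of 0.000282 in that test. The Müller glia gene *Rlbp1*, at 718 to 967 TPM, fits the labelled tissue.

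RNA of the 10 genes covered a wide range of levels. In control retinas *Errfi1* was the most abundant at 38.1 ± 2.95 TPM (mean ± SD, n = 3), followed by the ligands *Btc* at 15.0 ± 1.03, *Hbegf* at 12.7 ± 2.33 and *Tgfa* at 5.69 ± 0.603 TPM. The receptors *Erbb2* (4.28 ± 0.432 TPM), *Egfr* (4.21 ± 0.900) and *Erbb4* (3.55 ± 1.25) came next, with *Nrg1* at 2.33 ± 0.572, *Egf* at 0.747 ± 0.156 and *Erbb3* at 0.413 ± 0.0734 TPM. Neighbours in that order whose control retinas overlapped were *Btc* with *Hbegf*, *Erbb2* with *Egfr*, *Egfr* with *Erbb4*, and *Erbb4* with *Nrg1*. The other neighbours were separated in every control and every *Yap* cKO retina. In *Yap* cKO retinas *Erbb4* had the highest mean of the receptors and its 3 retinas lay above those of *Nrg1*, while *Btc* (11.97 ± 1.32 TPM) and *Hbegf* (11.93 ± 0.928) had nearly the same mean. The plot of levels by retina shows these values by role.

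**Figure D1:**
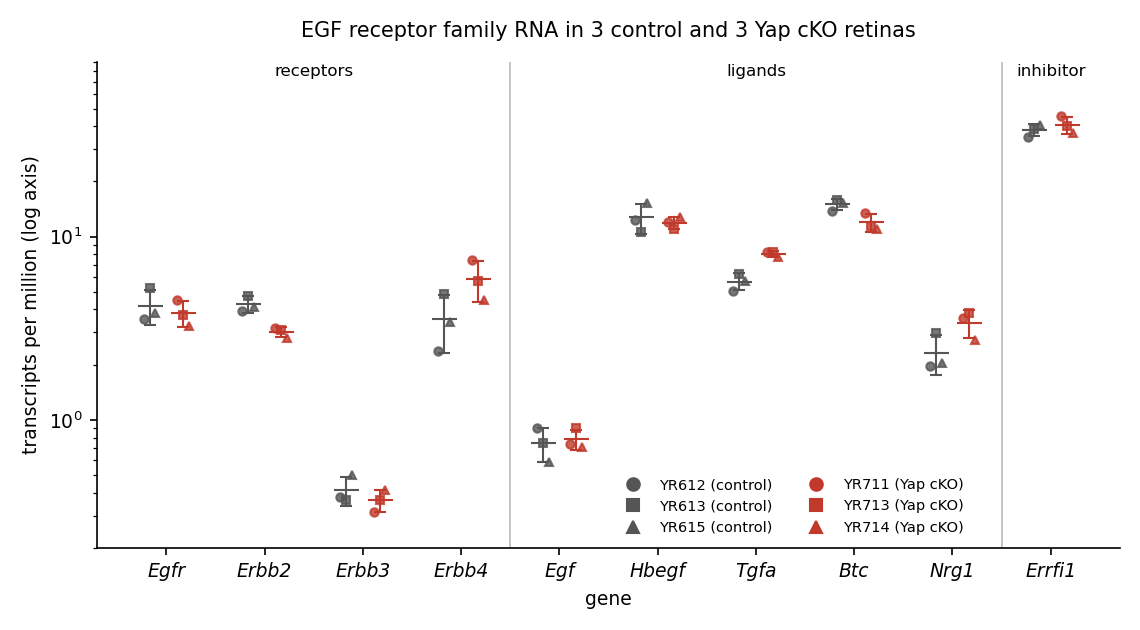
Level of each gene in TPM (log axis) in 3 control (grey) and 3 *Yap* cKO (red) retinas, with 1 marker per retina, horizontal bars for group means and whiskers for the SD. *Errfi1* lies highest at 34.95 to 45.2 TPM and *Erbb3* lowest at 0.312 to 0.498 TPM, and the red markers lie wholly below the grey ones for *Erbb2* and *Btc* and wholly above them for *Tgfa*.

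Among the receptors, *Erbb2* (chromosome 11, 98412470 to 98437716) measured 3.93, 4.76 and 4.15 TPM in the control retinas YR612, YR613 and YR615, and 3.16, 3.09 and 2.81 TPM in the *Yap* cKO retinas YR711, YR713 and YR714. No *Yap* cKO retina reached the lowest control, and the mean was 29.5% lower. The log2 fold change was -0.56 ± 0.127 (SE, 95% interval -0.84 to -0.27), with an unadjusted p of 0.00155 and an adjusted p of 0.0673 in edgeR's quasi-likelihood test, which is short of the threshold of 0.05.

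*Erbb4* (chromosome 1, 68032186 to 69108059), the receptor of neuregulins, measured 2.37, 4.85 and 3.42 TPM in control retinas against 7.45, 5.76 and 4.49 TPM in *Yap* cKO retinas, in the same order of animals. The control YR613 lay above the *Yap* cKO retina YR714, so that the groups overlapped, although the mean was 66.3% higher in *Yap* cKO. Its log2 fold change of 0.68 ± 0.234 (interval 0.15 to 1.204) was the only one of the 10 whose estimate exceeded 1.5-fold, the minimum change the study's criteria ask for, and its adjusted p was 0.154 in the same edgeR test (unadjusted p 0.0169).

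*Egfr* (chromosome 11, 16752203 to 16918158) measured 3.55, 5.23 and 3.84 TPM in control against 4.48, 3.71 and 3.27 TPM in *Yap* cKO retinas. Values of the groups were interleaved, with the control YR613 highest and the *Yap* cKO retina YR714 lowest. Its log2 fold change was -0.19 ± 0.157 (interval -0.55 to 0.16; adjusted p 0.485, same edgeR test). *Erbb3* (chromosome 10, 128567523 to 128589652), the partner receptor with the weak kinase, was near the limit of these libraries, with 12 to 23 fragments per retina. It measured 0.378, 0.364 and 0.498 TPM in control against 0.312, 0.363 and 0.414 TPM in *Yap* cKO retinas, which overlapped. The interval of its log2 fold change (-0.86 to 0.37) was the widest of the 10, and its adjusted p was 0.618 in edgeR's quasi-likelihood test.

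Of the ligands, *Tgfa* (chromosome 6, 86195223 to 86275719), a ligand of EGFR, measured 5.07, 6.27 and 5.71 TPM in control against 8.25, 8.20 and 7.73 TPM in *Yap* cKO retinas. Every *Yap* cKO retina was above every control, with a mean 41.8% higher. The log2 fold change was 0.45 ± 0.104 (interval 0.21 to 0.68), with an adjusted p of 0.0713 in the same edgeR test (unadjusted p 0.00181).

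Betacellulin RNA (*Btc*, chromosome 5, 91357261 to 91402994) differed in the opposite direction. It measured 13.8, 15.8 and 15.3 TPM in control against 13.5, 11.5 and 10.98 TPM in *Yap* cKO retinas. The groups did not overlap, but the *Yap* cKO retina YR711 came within a small step of the control YR612. The mean was 20.2% lower and the log2 fold change -0.38 ± 0.104 (interval -0.62 to -0.15), with an adjusted p of 0.0987 (unadjusted p 0.0045) in edgeR's quasi-likelihood test.

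*Nrg1* (chromosome 8, 31814551 to 32884797), the ligand of ERBB3 and ERBB4, measured 1.96, 2.99 and 2.03 TPM in control against 3.61, 3.84 and 2.72 TPM in *Yap* cKO retinas. As for its receptor *Erbb4*, the control YR613 lay above the *Yap* cKO retina YR714. The log2 fold change was 0.49 ± 0.174 (interval 0.10 to 0.88; adjusted p 0.161, same edgeR test). The gene has 18 annotated transcripts, which the counts do not separate, and 186 of its exonic bases (1.2%) also belong to another gene on the same strand.

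Heparin-binding EGF-like growth factor (*Hbegf*, chromosome 18), which is known to be induced in injured Müller glia, measured 12.4, 10.6 and 15.2 TPM in control against 11.98, 10.98 and 12.8 TPM in *Yap* cKO retinas. The *Yap* cKO values lay inside the control range, and the log2 fold change was -0.15 ± 0.146 (interval -0.48 to 0.17; adjusted p 0.557, same edgeR test). *Egf* (chromosome 3, 129677565 to 129755316), the founding ligand, measured 0.901, 0.751 and 0.589 TPM in control against 0.736, 0.897 and 0.714 TPM in *Yap* cKO retinas. These values overlapped fully, and the log2 fold change was 0.02 ± 0.205 (interval -0.44 to 0.48; adjusted p 0.962, same edgeR test).

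*Errfi1* (chromosome 4, 150853919 to 150868892), the feedback inhibitor, measured 34.95, 38.7 and 40.8 TPM in control against 45.2, 40.0 and 36.8 TPM in *Yap* cKO retinas. The groups overlapped, and the log2 fold change was 0.03 ± 0.0905 (interval -0.17 to 0.24; adjusted p 0.842, same edgeR test). The intervals of *Errfi1*, *Egfr*, *Egf* and *Hbegf* lay wholly within a 1.5-fold change in either direction.

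Counted over the family, 0 of the 10 genes passed an adjusted p of 0.05 in edgeR's quasi-likelihood test, against 1.49% of all genes tested, and 0 met the full criteria (adjusted p of at most 0.05, 1.5-fold and 5 TPM in 1 group), against 0.796%. At an unadjusted p of at most 0.05 there were 5 of 10 (*Erbb2*, *Tgfa*, *Btc*, *Erbb4* and *Nrg1*), where 21.4% of all genes tested reached it. The retinas did not overlap with *Yap* cKO higher in 1 of 10, against 15.2% of all genes, and with *Yap* cKO lower in 2 of 10, against 9.04%. No test of these counts against the background was made. Fold changes were positive in 5 of the 10 genes and negative in the other 5. Their median log2 fold change was -0.07, and that of all genes tested was 0.00. The TPM minimum alone excluded 5 of the 10, whose means were under 5 TPM in both groups.

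The tests differed in which of these genes they called. DESeq2's Wald test gave an adjusted p of at most 0.05 to *Erbb2* (0.0361), *Tgfa* (0.0198), *Btc* (0.0484) and *Erbb4* (0.0497), with 5.25% of all genes called. edgeR's likelihood ratio test called *Erbb2* (adjusted p 0.0116), *Tgfa* (0.017) and *Btc* (0.0436), with 6.18% of all genes called. limma-voom, which called 1.64% of all genes, called 0 of the 10, with *Erbb2* at an adjusted p of 0.0671 and *Tgfa* at 0.0636. Without a filter on low counts, the quasi-likelihood test gave adjusted p-values of at most 0.05 to 5 of the 10 and to 6.19% of the 30129 genes then tested.

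Long genes stood higher in some libraries than in others. Spearman's rank correlation between a gene's length and its level relative to its mean over the 6 retinas was -0.41 in YR612 and -0.41 in YR615, but 0.17 in the control YR613, 0.40 in YR711, 0.39 in YR713 and -0.15 in YR714. These are correlations across genes, which are not independent replicates. Among the 10 genes, 9 are longer than the median of 4132 exonic bases, and *Erbb4* (12355), *Nrg1* (15433), *Egfr* (11326) and *Egf* (11275) lie in the range of 8000 to 16000 bases, where the median log2 fold change of 2376 genes was 0.16 and became 0.01 after a correction for length in each retina. With that correction the log2 fold change of *Erbb4* became 0.49 (adjusted p 0.153), that of *Nrg1* 0.23 (0.283), that of *Egfr* -0.37 (0.113) and that of *Egf* -0.16 (0.717), all in the same edgeR test. The shorter genes moved less, with *Erbb2* (5210 bases) at -0.59 and an adjusted p of 0.0381, *Tgfa* (6490 bases) at 0.39 and 0.0623, and *Btc* (4520 bases) at -0.38 and 0.0712 under the length-corrected edgeR test. *Erbb2* was thus the 1 gene of 10 that this fit called, and 2.77% of all genes were called. Both estimates are set side by side in the plot of fold changes.

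**Figure D2:**
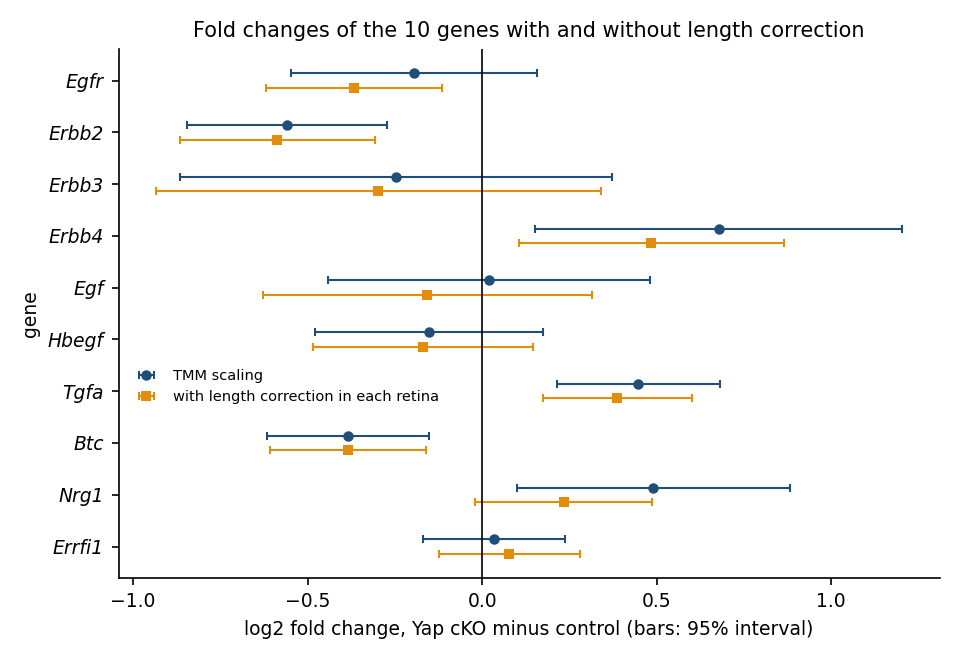
Log2 fold change of each gene, *Yap* cKO minus control, with its 95% interval, fitted with TMM scaling (blue circles) and with an added length correction in each retina (orange squares). The correction moves the long genes *Egfr*, *Erbb4*, *Egf* and *Nrg1* to the left, *Erbb4* from 0.68 to 0.49 and *Nrg1* from 0.49 to 0.23, and leaves *Btc* at -0.38.

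Single retinas weighed on the same genes. Without the control YR613, in which long genes stood higher than in the other controls, edgeR's quasi-likelihood test called 3 of the 10 genes and 8.84% of all genes. *Erbb4* then had a log2 fold change of 0.94 with an adjusted p of 0.027, *Nrg1* one of 0.68 with an adjusted p of 0.0318, and *Tgfa* one of 0.50 with an adjusted p of 0.0362. *Erbb2* stood at -0.50 with an adjusted p of 0.0687 in that fit. Leaving out any other retina gave 0 calls among the 10, with *Erbb4* as low as 0.47 without YR612. Without YR714, the same 3 genes lay just over the threshold in that test. *Erbb4* was at 0.82 (adjusted p 0.0511), *Nrg1* at 0.61 (0.053) and *Tgfa* at 0.46 (0.053). In that fit 448 genes of the whole table met the full criteria, against 132 with all 6 retinas. The estimates of *Tgfa* stayed between 0.39 and 0.50 and those of *Btc* between -0.47 and -0.34 over the 6 fits that left out 1 retina, and those of *Erbb2* between -0.60 and -0.50. *Egf* and *Errfi1* took both signs.

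**Figure D3:**
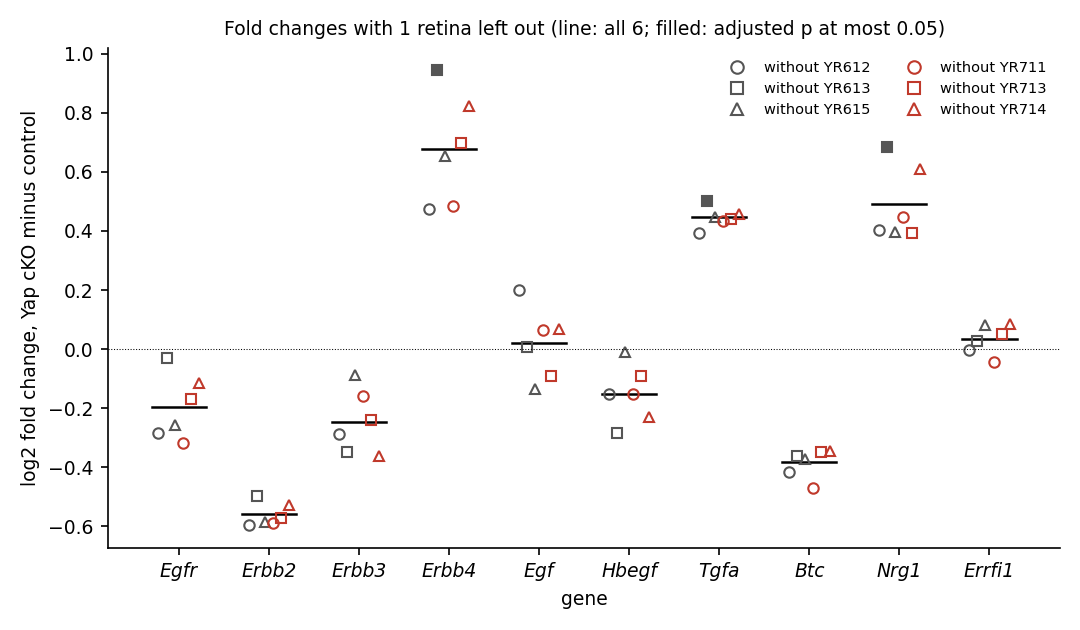
Log2 fold change of each gene, *Yap* cKO minus control, with 1 retina left out (grey for a control and red for a *Yap* cKO retina, 1 marker shape per retina as in the key), beside the estimate from all 6 retinas (black line). Filled markers have an adjusted p of at most 0.05 in edgeR's quasi-likelihood test and occur for *Erbb4* (0.94), *Nrg1* (0.68) and *Tgfa* (0.50) without YR613.

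Proportions between some of the genes are given beside the sums, as a description of pairs chosen after their values were seen and therefore given no test. The sums add genes that differed in opposite directions, so the 2 kinds of value are not set against each other. Summed RNA of the 4 receptors was 12.4 ± 2.54 TPM in control against 13.1 ± 2.22 TPM in *Yap* cKO retinas, and that of the 5 ligands was 36.5 ± 2.35 and 36.1 ± 1.67 TPM (SD, n = 3 each). *Erbb4* made up 23.2, 31.9 and 28.8% of the receptor RNA in control retinas and 48.4, 44.6 and 40.9% in *Yap* cKO retinas. *Erbb2* made up 38.4, 31.3 and 34.8% against 20.5, 23.9 and 25.6%. The largest share of receptor RNA thus belonged to *Erbb4* in all 3 *Yap* cKO retinas, and to *Erbb2* or *Egfr* in the controls YR612, YR613 and YR615. Because *Erbb4* is more than double the length of *Erbb2*, the length trend described above enters this proportion.

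The ratio of *Tgfa* to *Btc*, 2 EGFR ligands of closer length, was 0.366, 0.396 and 0.374 in control against 0.612, 0.715 and 0.705 in *Yap* cKO retinas. Its control values lay within a narrow band, and all 3 *Yap* cKO values lay above it. That separation was fixed by the choice of the pair, since *Tgfa* was higher and *Btc* lower in every *Yap* cKO retina. On average the ratio was 0.379 ± 0.0154 in control and 0.677 ± 0.0566 in *Yap* cKO retinas (SD, n = 3 each), 1.79 times as high. The ratio of *Erbb4* to *Erbb2* was 0.603, 1.02 and 0.826 in control against 2.36, 1.86 and 1.598 in *Yap* cKO retinas. Here too the groups did not overlap, and the *Yap* cKO retina nearest to control was YR714.

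**Figure D4:**
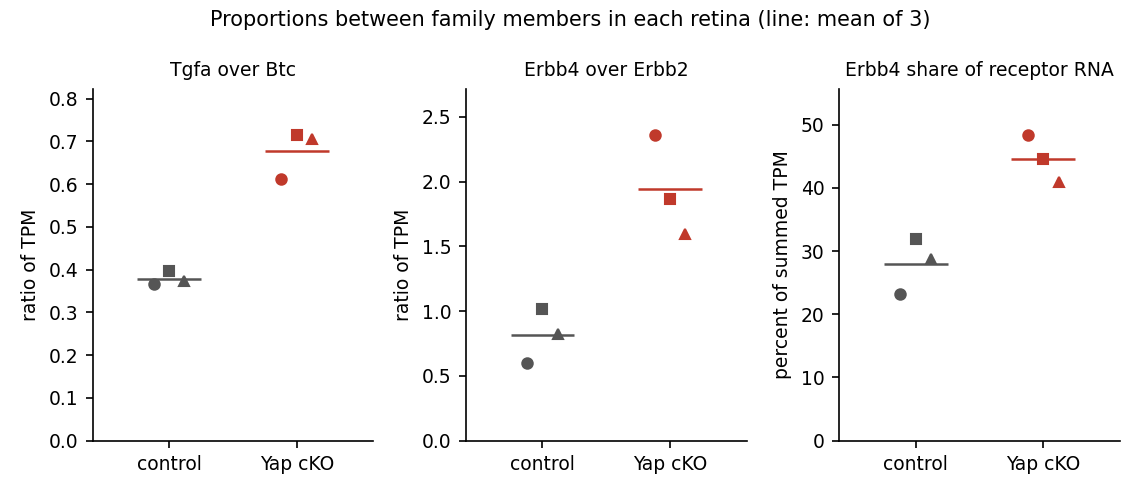
Ratio of *Tgfa* to *Btc* TPM (left), ratio of *Erbb4* to *Erbb2* TPM (middle) and *Erbb4* as a percentage of the summed TPM of the 4 receptors (right), with 1 marker per retina (circle, square and triangle for YR612, YR613 and YR615 in control and for YR711, YR713 and YR714 in *Yap* cKO) and a line at each mean. The groups are apart in all 3 panels, at 0.366 to 0.396 against 0.612 to 0.715, 0.603 to 1.02 against 1.598 to 2.36, and 23.2 to 31.9% against 40.9 to 48.4%. The genes shown were chosen after their values were seen.

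Around the 10 genes, the wider pathway was counted in lists set against the same background of 1.49%. Without YR613, 8.84% of all genes passed, and this share is not given for the other fits that left out 1 retina. The lists are counted by the adjusted p alone. By the stricter full criteria, 132 genes of the whole table passed with all 6 retinas, 516 without YR613, 448 without YR714 and 104 without YR711. They numbered 40 without YR612, 38 without YR615 and 68 without YR713. Of 6 other EGF family ligands, 3 were tested and 0 passed, with *Nrg3* at a log2 fold change of 0.26 (adjusted p 0.256) and *Nrg2* at 0.22 (0.441) in edgeR's quasi-likelihood test. *Ereg* had no count in any retina, and *Epgn* and *Areg* were under the filter, with *Areg*, a ligand gene known as a YAP target in epithelia, at 1.497, 2.04 and 1.07 TPM in control against 0.773, 0.946 and 0.964 TPM in *Yap* cKO retinas. These *Areg* values rest on 12, 17 and 10 fragments in control against 6, 10 and 8 in *Yap* cKO retinas, and the gene was not tested. Of 7 genes for ligand shedding, 0 passed. The sheddases *Adam10* and *Adam17*, which release the betacellulin and EGF precursors and those of TGFA and HBEGF respectively, had log2 fold changes of 0.22 (adjusted p 0.217) and 0.08 (0.596). *Adam9* at 0.26 (0.122) and *Rhbdf1*, an iRhom that escorts ADAM17 to the surface, at -0.63 (0.154) had the smallest p-values of that list in the same edgeR test.

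Of 16 genes that down-regulate receptors or restrain their signal, 1 passed and was higher. This was *Spred2*, an inhibitor of RAS to RAF signalling, at 14.4, 16.7 and 15.3 TPM in control against 21.9, 24.2 and 20.9 TPM in *Yap* cKO retinas. All 3 *Yap* cKO retinas were above the controls, and its log2 fold change was 0.47 ± 0.0907 with an adjusted p of 0.0412 in edgeR's quasi-likelihood test. When each retina was left out in turn, *Spred2* passed in 2 of 6 fits, with an adjusted p of up to 0.21, and with sex as a covariate its adjusted p was 0.0683. The count of the list was 4 without YR613 (8.84% of all genes), 1 without YR714 and 0 without any of the other 4 retinas. The median log2 fold change of the 16 was 0.09.

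Of 15 adaptors and RAS regulators, 1 passed. *Shc3*, an adaptor of the SHC family that is known from neurons, measured 2.28, 4.39 and 2.63 TPM in control against 7.43, 10.5 and 6.76 TPM in *Yap* cKO retinas, with no overlap. Its log2 fold change was 1.36 ± 0.24 with an adjusted p of 0.0314 in edgeR's quasi-likelihood test, and it passed in 3 of 6 fits that left out 1 retina (adjusted p of up to 0.164). With sex as a covariate its adjusted p was 0.0556 in that test. The count of this list was 2 without YR613 (8.84% of all genes) and 0 without YR612, YR615 or YR713. Among the RAF, MEK and ERK kinases 0 of 8 passed (1 without YR613), with *Braf* at 0.39 (adjusted p 0.159) in the same edgeR test. Among the PI3K and AKT genes 0 of 9 passed (1 without YR613), with *Akt2* at 0.16 (adjusted p 0.272) in the same edgeR test.

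ERK signalling is read in many tissues through genes it induces, such as the ETS factors *Etv1*, *Etv4* and *Etv5* and the phosphatase genes *Dusp4* and *Dusp6*. Of 11 such genes tested, 1 passed. *Etv5* measured 27.0, 28.2 and 28.9 TPM in control against 41.0, 54.1 and 49.6 TPM in *Yap* cKO retinas, well apart, with a log2 fold change of 0.73 ± 0.108 and an adjusted p of 0.0158 in edgeR's quasi-likelihood test. It passed in 3 of 6 fits that left out 1 retina, with an adjusted p of up to 0.0927. The count of this list was 4 under DESeq2's Wald test (5.25% of all genes), under the likelihood ratio test (6.18%) and without YR613 (8.84%). It was 2 with length correction (2.77%), without YR711 or without YR714, and 0 without YR612, YR615 or YR713. *Etv1* stood at 0.47 (adjusted p 0.0624), *Etv4* at 0.79 (0.112), *Dusp4* at 0.38 (0.098), *Dusp5* at -0.30 (0.117) and *Dusp6* at 0.03 (0.911) in the same edgeR test. These genes are also induced by other receptor tyrosine kinases, among them FGF receptors.

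Of 14 YAP/TAZ target genes tested, 2 passed and both were lower. *Ccn2*, which encodes a matricellular protein, measured 55.9, 38.7 and 72.4 TPM in control against 16.6, 16.1 and 18.8 TPM in *Yap* cKO retinas, and *Ajuba*, which encodes a LIM protein of the Hippo pathway, measured 7.61, 8.12 and 7.21 TPM and 2.41, 3.06 and 2.69 TPM. Their log2 fold changes were -1.76 (adjusted p 0.00479) and -1.54 (adjusted p 0.00152) in the same edgeR test, and both passed in all 6 fits that left out 1 retina. The count of this list was 6 under DESeq2's Wald test (5.25% of all genes) and under the likelihood ratio test (6.18%). It was 5 without YR714, and 4 without YR613 (8.84%) or with length correction (2.77%). The median log2 fold change of the 14 was -0.32, and that of the 10 family genes was -0.07. Both lists were chosen with earlier results of these data known, and the medians were not tested against each other.

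**Figure D5:**
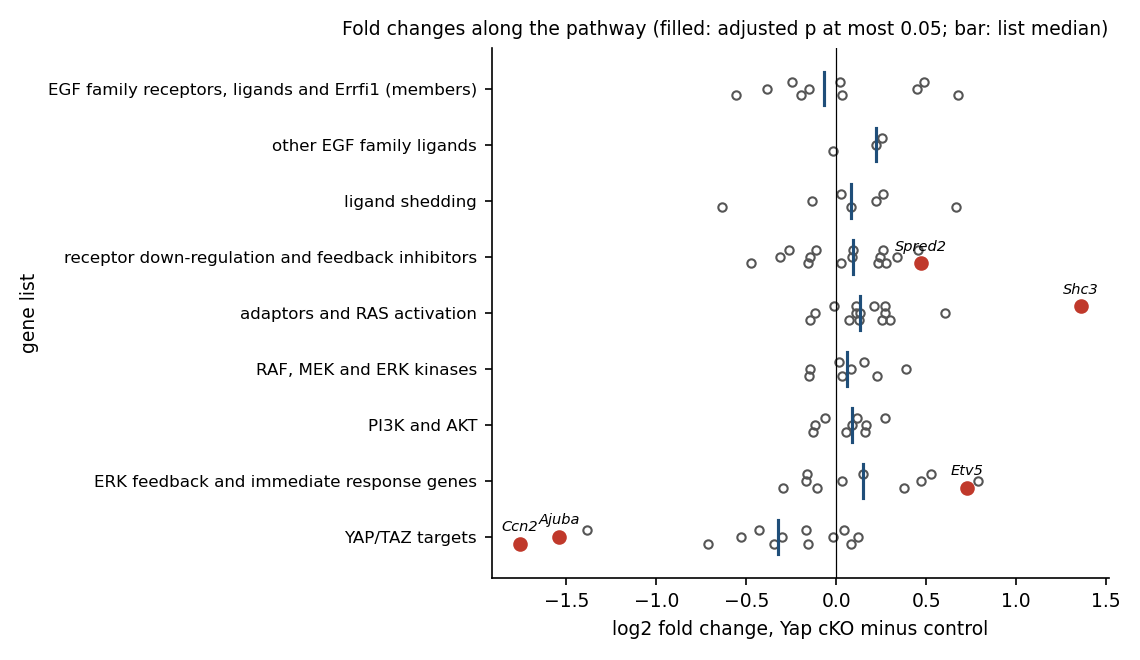
Log2 fold change, *Yap* cKO minus control, of each tested gene (circles) in the family and in 8 lists of the wider pathway, with the list median as a blue bar and filled red circles for an adjusted p of at most 0.05. The filled circles are *Spred2* (0.47), *Shc3* (1.36), *Etv5* (0.73), *Ccn2* (-1.76) and *Ajuba* (-1.54).

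Among markers of the cells that a retina sample can hold, the summed level of 12 Müller glia genes was 7365 to 7580 TPM in control against 6473 to 6933 TPM in *Yap* cKO retinas, which did not overlap. Most of that sum came from *Glul*, *Dkk3*, *Apoe* and *Rlbp1*, and the fold changes of the 12 were positive for 4 and negative for 8. In edgeR's quasi-likelihood test 1 of the 12 passed, against 1.49% of all genes, namely *Prdx6*, which was lower (adjusted p 0.0477). The count was 0 without YR612, YR615, YR711 or YR713, 4 without YR613 (8.84% of all genes) and 3 without YR714. That share of all genes is not given for the fit without YR714 or for those with a count of 0. By the stricter full criteria, 132 genes of the whole table passed with no retina left out, 516 without YR613 and 448 without YR714. They numbered 40 without YR612, 38 without YR615, 104 without YR711 and 68 without YR713. The counts of 4 and 3 thus came from fits in which more genes of the whole table passed. Of the 12, the retinas did not overlap with *Yap* cKO lower in 2, against 9.04% of all genes, and higher in 1, against 15.2%. *Rlbp1* was lower in every *Yap* cKO retina (718 to 788.5 TPM) than in control (908 to 967 TPM). Its log2 fold change was -0.36, with an adjusted p of 0.054 in the same edgeR test. *Kcnj10*, a potassium channel gene of Müller glia, was the 1 that was higher in every *Yap* cKO retina (85.9 to 97.95 TPM) than in control (66.3 to 80.8 TPM). Its log2 fold change was 0.28, with an adjusted p of 0.126 in the same edgeR test. The part of Müller glia RNA in the *Erbb2* and *Btc* values was not tested.

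The summed RNA of 10 markers of the retinal pigment epithelium, a tissue that can adhere to a dissected retina, was 701 to 761 TPM in control and 212, 398 and 719 TPM in YR711, YR713 and YR714, so that the groups overlapped. *Ttr* carried most of the sum, and the markers did not go together in YR714, where *Ttr* (469 TPM) lay in the control range while *Pmel* (3.96 TPM, control 19.7 to 26.3) and *Tyrp1* (5.23 TPM, control 12.01 to 14.3) lay below it. Fold changes of the 10 markers were all negative, with a median log2 fold change of -0.78. In 5 of the 10, every *Yap* cKO retina lay below every control, against 9.04% of all genes. None of the 10 lay wholly above, against 15.2%. *Pmel* was the 1 of the 10 that passed, with a lower level and an adjusted p of 0.0347 in the same edgeR test. The count was 0 without YR612, YR615 or YR711, 2 without YR613 (8.84% of all genes) or YR713 and 6 without YR714. These counts use the adjusted p alone, and the share of all genes is not given for the fits without YR713 or YR714. By the stricter full criteria, 132 genes of the whole table passed with all 6 retinas, 68 without YR713 and 448 without YR714. The part of pigment epithelium RNA in the family's values was not tested. Lens markers summed to 4.14 to 19.8 TPM in control against 1.97 to 4.74 TPM in *Yap* cKO retinas, and markers of cornea and skin epithelium to 1.05 to 2.93 TPM over all 6. Both of these sums overlapped between the groups. Of 9 tested markers of the ciliary non-pigmented epithelium and retinal margin, 0 passed in edgeR's quasi-likelihood test. Their fold changes were negative for 7 and positive for 2, with a median log2 fold change of -0.43. *Yap* cKO retinas lay below every control in 4 of the 9, against 9.04% of all genes, and above in 0, against 15.2%. The likelihood ratio test called 4, against 6.18%. The part of ciliary RNA in the family's values was not tested.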

How the data were processed

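Retinas of 3 control and 3 *Yap* cKO mice, grouped by the genotype in the labels, were analysed. The authors aligned paired-end reads to GRCm38 with STAR 2.7.3a and counted fragments per gene with featureCounts 1.6.2 (strand setting 2, annotation release 98 per the file headers). The deposited values are counts without normalization. By its default, featureCounts leaves out fragments that match several genes or places. From 24261799 to 35067068 counts per retina were assigned. TPM was computed from counts and exonic lengths.

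Low genes were removed by filterByExpr and the rest scaled by TMM (factors 0.986 to 1.02). The main test was the quasi-likelihood test of edgeR 4.0.16 in R 4.3.3 (common dispersion 0.0126), with Benjamini-Hochberg adjustment over 16575 genes and no covariate. Sex read from sex-linked genes (2 males and 1 female in control, 1 male and 2 females in *Yap* cKO) was a covariate in an alternative. Standard errors were derived from the F statistics. The length correction fitted a loess curve (span 0.3) in each retina. The steps were tested on counts simulated with a single dispersion (0.0126) and no length trend. All 200 genes changed there, each at 5 TPM or more, were called, with 0 others. Those changes were larger than any of the 10 genes showed, and smaller ones were not simulated. The study's criteria (adjusted p of at most 0.05, 1.5-fold, 5 TPM in 1 group) were counted too. DESeq2 1.42.0 and limma 3.58.1 served as alternatives. With 3 retinas a group, exact permutation cannot give a two-sided p under 0.1, so none was run. Members and gene lists were chosen with earlier results of these data known. Genes named were the 10 members, *Yap1*, and of each pathway list those past an adjusted p of 0.05 or otherwise at most 2 with the smallest p, of which some are not reported here. Other genes named (*Areg*, *Ereg*, *Epgn*, *Adam10*, *Adam17*, *Etv1*, *Etv4*, *Dusp4*, *Dusp5*, *Dusp6*, *Rlbp1*, *Prdx6*, *Glul*, *Dkk3*, *Apoe*, *Kcnj10*, *Ttr*, *Tyrp1* and *Pmel*) were chosen after their values were seen. In all, 11 lists of cell markers were counted. Those for astrocytes (1 of 5 passed, lower), fibroblasts (1 of 6, lower), lens (0 of 3), cornea and skin (0 of 2), oligodendrocytes and Schwann cells (0 of 4), endothelium (0 of 7), microglia (0 of 8) and amacrine and ganglion cells (0 of 10) are given by their counts, with sums only for lens and for cornea and skin.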

Additional observations from a re-analysis of the deposited data

How the results depend on the processing

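Of 140 fold changes of single genes under 14 alternatives each, 119 kept their direction and their side of an adjusted p of 0.05, 16 newly passed it and 5 changed sign, 3 of *Egf* and 2 of *Errfi1*, which lay near 0. Under DESeq2's Wald test 4 of the 10 genes passed and 1, *Erbb4*, met every criterion (log2 fold changes -0.56 for *Erbb2*, 0.68 for *Erbb4*, 0.45 for *Tgfa* and -0.38 for *Btc*). With edgeR's likelihood ratio test 3 passed (*Erbb2* -0.56, *Tgfa* 0.45 and *Btc* -0.38). Without a filter on low counts 5 passed and 1, again *Erbb4*, met every criterion (*Erbb2* -0.56, *Erbb4* 0.68, *Tgfa* 0.44, *Btc* -0.39 and *Nrg1* 0.49). With length-corrected offsets 1 passed (*Erbb2* -0.59), and *Egf* changed sign to -0.16. Median ratio size factors, library size alone, limma-voom and sex as a covariate (read from sex-linked genes) called 0 of the 10. With 1 retina left out, 0 to 3 genes passed and 0 to 1 met every criterion. In these fits *Egfr* ranged from -0.32 to -0.03, *Erbb2* from -0.60 to -0.50, *Erbb3* from -0.36 to -0.09, *Erbb4* from 0.47 to 0.94, *Egf* from -0.13 to 0.20 (below 0 without YR615 or YR713), *Hbegf* from -0.28 to -0.01, *Tgfa* from 0.39 to 0.50, *Btc* from -0.47 to -0.34, *Nrg1* from 0.39 to 0.68 and *Errfi1* from -0.043 to 0.083 (below 0 without YR612 or YR711). Over the whole table, 132 genes met every criterion, against 256 by DESeq2's Wald test, 291 by the likelihood ratio test and 369 without the filter. Leaving out 1 retina gave 38 to 516 such genes, with 40 without YR612, 516 without YR613, 38 without YR615, 68 without YR713 and 448 without YR714. The cause of these differences was not tested. A median ratio, library size or TMM scaling gave 133, 140 and 132. The paper, which names edgeR but not which of its tests, reports a longer list under the same criteria than the 132 found here. No paired analysis was possible because the groups share no replicate numbers. Depth limits *Erbb3* most, with 12 to 23 fragments per retina.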
